A study of Mus musculus with 9 samples.

Results

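The 10 genes described here encode subunits of the Polycomb repressive complexes, and their transcript levels were measured in mouse neural stem cells (NSCs) in 3 culture conditions. They are Ezh2, Ezh1, Eed, Suz12, Rbbp4, Rbbp7 and Jarid2 of Polycomb repressive complex 2 (PRC2) and Cbx2, Bmi1 and Ring1 of Polycomb repressive complex 1 (PRC1). The members were taken by name as subunits of these complexes, and all 10 were found among the 55704 genes of the deposited table. NSCs from the subventricular zone of adult C57BL/6 mice of 8 to 9 weeks, pooled from 2 females and 2 males per isolation and passaged, were grown attached for 16 to 18 hours before treatment. The bFGF/EGF-treated NSCs received basic fibroblast growth factor and epidermal growth factor, each at 20 ng/mL, were collected at day 0 and are called the control. The bFGF/BMP4-treated NSCs received basic fibroblast growth factor and bone morphogenetic protein 4, each at 20 ng/mL, and the BMP4-treated NSCs received BMP4 alone at 20 ng/mL, both until day 6. Each group had 3 libraries. The labels do not tie libraries to separate isolations, so p-values measure the spread between these libraries, which may be technical. The control was collected at day 0, so the treatment and the time in culture cannot be told apart in a comparison with it.

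Polycomb complexes keep genes silent through marks on histones. PRC2 methylates lysine 27 of histone H3 (H3K27me3): Ezh2 or its paralogue Ezh1 is the enzyme, Eed and Suz12 are needed for its activity, Rbbp4 and Rbbp7 bind histones, and Jarid2 is an accessory subunit that helps to recruit the complex. In PRC1, Ring1 or its paralogue Rnf2 ubiquitinates histone H2A, a Pcgf protein such as Bmi1 (Pcgf4) is its partner, and a Cbx protein such as Cbx2 reads H3K27me3. In neural stem cells Polycomb is known for silencing the Ink4/Arf locus, which encodes inhibitors of the cell cycle, and Ezh2 is known as an enzyme of dividing cells and Ezh1 as one of resting and differentiated cells.

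The libraries held 15902890 to 17438719 fragments on genes, as rebuilt from the deposited values, which are FPKM (fragments scaled by gene length and by library size). Sox2, a transcription factor of neural stem cells, was at 167 ± 36, 137 ± 12 and 137 ± 13 FPKM (SD, n = 3) in the control, bFGF/BMP4 and BMP4 groups. Nes, which encodes the stem cell filament Nestin, was at 151 ± 6.4, 3.55 ± 0.52 and 15.8 ± 5.0 FPKM (SD, n = 3), and the summed level of 8 NSC markers was 1744 to 1861, 773 to 876 and 1474 to 1922 FPKM over the libraries of each group. Summed levels of 8 markers were at most 1.75 FPKM for microglia and at most 5.54 FPKM for vascular cells in any library, and 2 or 3 of each list were at 0 in all libraries of a group. The sum of 8 astrocyte markers was 222 to 302, 693 to 786 and 3697 to 4579 FPKM in the 3 groups. Against the control, 6 of these 8 were higher and 2 lower in each group of day 6, and most of the sum in the BMP4 group came from Gfap (2566 FPKM) and Aqp4 (778 FPKM). These are bulk samples, in which fewer cells of a type and less RNA per cell cannot be told apart.

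Most of the 10 members were lower in both groups collected at day 6 than in the bFGF/EGF-treated NSCs, and Ezh1 was higher. Only Cbx2 of the PRC1 members was among those lower. The members were chosen with earlier results of these data known. Genes were compared with limma on log2(FPKM + 0.1) over the 20207 genes with a mean of at least 0.1 FPKM, and a gene passed at a Benjamini-Hochberg adjusted p of at most 0.05. All 10 members entered the test. In bFGF/BMP4-treated compared with bFGF/EGF-treated NSCs, 7 of 10 members were lower and 1 was higher, where 23.6% and 25.0% of all genes tested were lower and higher. With a fold change of at least 2, the threshold of the study, 3 members were lower and 1 higher, against 14.1% and 16.5% of all genes. In BMP4-treated compared with bFGF/EGF-treated NSCs, 7 members were lower and 2 higher, against 25.3% and 29.6% of all genes. At 2-fold or more, 4 members were lower and 1 higher, against 15.4% and 21.3%. The median log2 fold change of the members was -0.77 and -0.79 in these comparisons, beside 0.06 and 0.10 for all genes tested. The 2 comparisons share their control libraries.

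Between the groups collected at day 6, 1 of the 10 members passed the test, with counts near the shares of all genes. In BMP4-treated compared with bFGF/BMP4-treated NSCs, only Ezh2 passed the test, in which 1 member was lower, against 8.89% of all genes, and 0 were higher, against 12.2%. By limma at an unadjusted p under 0.05 the count of higher members was also 0, as it was by limma-voom on the rebuilt fragments. None reached 2-fold in either direction, where 5.14% of all genes were lower and 8.41% higher. The median log2 fold change was 0.05 for the members and 0 for all genes tested. For the members that did not pass, the 95% intervals reached from -0.74 (Suz12) to 0.73 (Ezh1) on the log2 scale. Differences of that size were not excluded by the test.

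**Figure D1:**
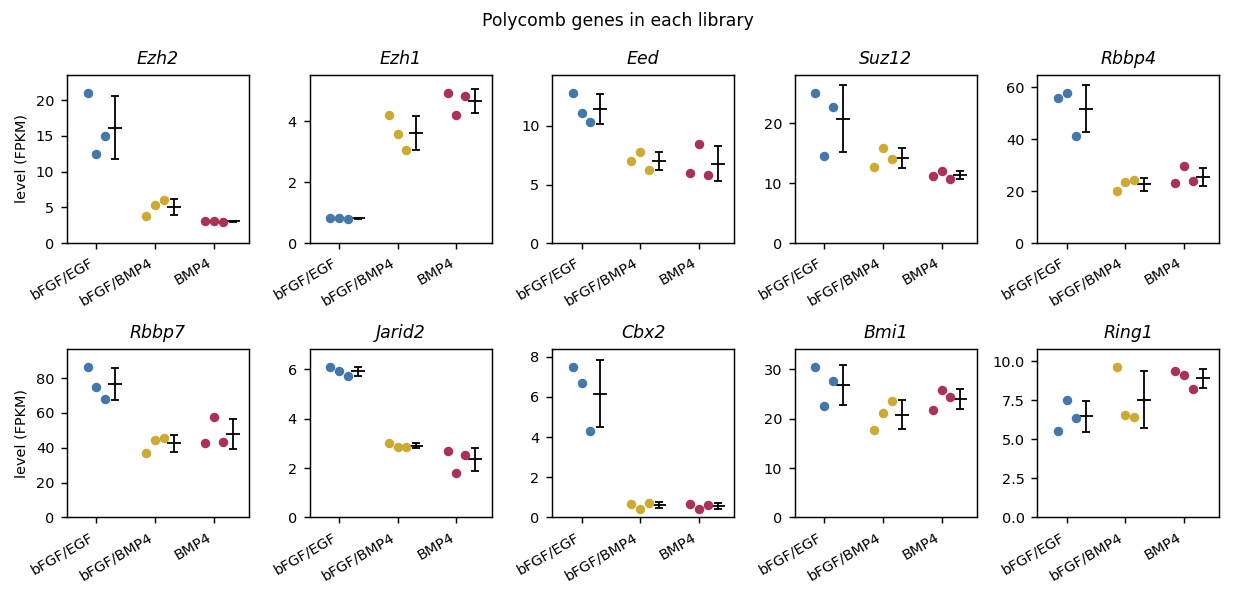
Level in FPKM of each of the 10 Polycomb genes (y axis, linear from 0, a scale of its own in each panel) in the 3 libraries of each group (points, x axis), with the mean and SD beside them. Ezh2 and Cbx2 were highest and Ezh1 lowest in the bFGF/EGF libraries with no overlap with the other groups, while the points of Bmi1 overlapped in all 3 groups.

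**Figure D2:**
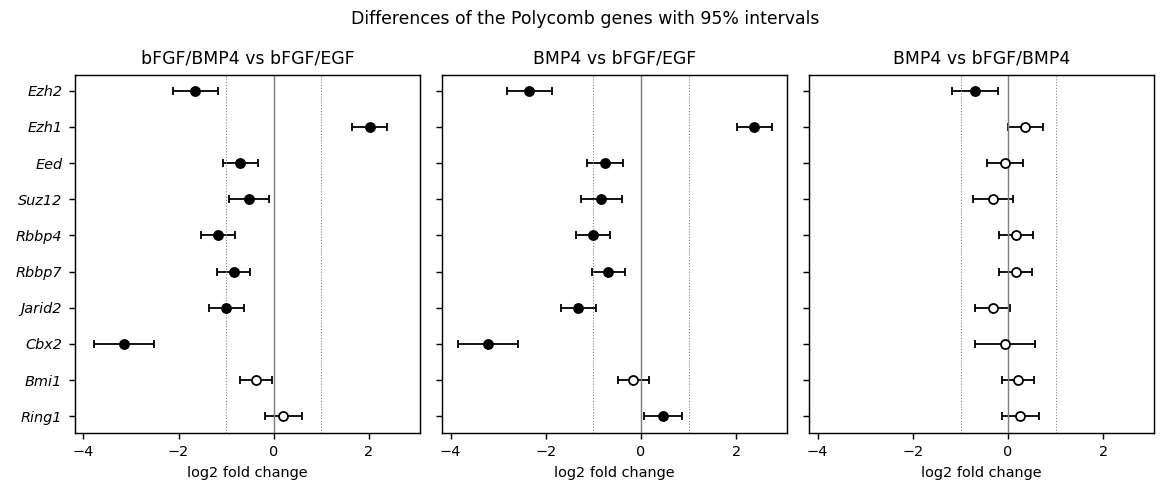
Log2 fold change of each Polycomb gene (points) with its 95% interval (bars) in the 3 comparisons, filled where the adjusted p was at most 0.05 and with dotted lines at 2-fold. Between BMP4-treated and bFGF/BMP4-treated NSCs, in the right panel, only Ezh2 is filled.

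Ezh2, which encodes the main H3K27 methyltransferase of dividing cells, lies on chromosome 6 at 47507073 to 47572331 on the minus strand (GRCm39). Its promoter is shown with those of Ezh1, whose level went the opposite way, and Suz12, since Ezh2 and Suz12 are the only ones of the 9 members with a promoter window that had a match to the E2F motif. The windows run from 250 bases before to 30 bases after the RefSeq start, on the strand of the gene, in GRCm38.p6 coordinates, and capitals mark matches to any of 3 motifs searched on both strands.
Ezh2, chr6:47595001-47595280, minus strand: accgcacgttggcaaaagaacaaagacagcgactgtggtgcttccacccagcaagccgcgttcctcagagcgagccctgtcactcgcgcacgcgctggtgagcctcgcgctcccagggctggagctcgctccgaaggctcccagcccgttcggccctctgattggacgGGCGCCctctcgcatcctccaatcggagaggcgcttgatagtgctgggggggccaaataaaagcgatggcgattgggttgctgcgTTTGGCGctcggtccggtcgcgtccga
Ezh1, chr11:101226434-101226713, minus strand: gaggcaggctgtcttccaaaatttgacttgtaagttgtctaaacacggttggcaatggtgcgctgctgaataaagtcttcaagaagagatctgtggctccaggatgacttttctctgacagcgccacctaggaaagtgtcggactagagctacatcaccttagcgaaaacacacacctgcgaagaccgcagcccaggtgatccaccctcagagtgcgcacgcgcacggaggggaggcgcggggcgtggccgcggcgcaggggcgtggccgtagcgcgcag
Suz12, chr11:79992856-79993135, plus strand: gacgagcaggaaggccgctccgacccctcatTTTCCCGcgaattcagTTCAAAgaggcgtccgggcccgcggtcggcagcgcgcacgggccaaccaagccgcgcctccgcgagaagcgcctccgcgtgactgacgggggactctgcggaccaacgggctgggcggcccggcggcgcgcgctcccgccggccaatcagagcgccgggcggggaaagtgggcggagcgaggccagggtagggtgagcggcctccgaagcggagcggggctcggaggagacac

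The motifs were looked for from 250 bases before to 50 after the start. Those of E2F, a family of cell cycle transcription factors, were TTTCCCG and also the word TTTCGCG, as well as TTTGCCG and also the word TTTGGCG. The motif of the cell cycle homology region was TTTGAA, and the BMP-responsive motif was the word GGCGCC. Windows were available for 9 of the 10 members, all except Cbx2. An E2F match was present in 2 of the 9, as TTTGGCG at bases 4 to 10 after the start of Ezh2 and as TTTCCCG at bases -219 to -213 of Suz12, and in 6.7% of all 32851 windows. For comparison, 6 of 16 proliferation genes with a window (37.5%) held one. So did 3 of 9 genes around Bap1 (33.3%), 1 of 7 PRC2 accessory genes and 1 of 13 genes of variant PRC1, lists described below. The numbers were 0 of 10 for canonical PRC1 and 0 of 1 for the H3K27 demethylases. TTTGAA was found in Eed, with 2 matches, and in Suz12, where it reads TTCAAA on the strand of the gene. It was in 17.9% of all windows and in 5 of 16 proliferation genes (31.2%). Of the other lists, 3 of 7 PRC2 accessory genes (42.9%) and 3 of 9 genes around Bap1 (33.3%) held it. So did 2 of 10 genes of canonical PRC1, 2 of 13 of variant PRC1 and 0 of 1 H3K27 demethylases. GGCGCC was found in 4 of 9 (Ezh2, Jarid2, Bmi1 and Ring1) and in 11.9% of all windows. It was also present in 4 of 16 proliferation genes (25.0%). In the other Polycomb lists described below, it was in 6 of 13 genes of variant PRC1 (46.2%) and 1 of 10 of canonical PRC1. It was in 1 of 7 PRC2 accessory genes, 0 of 9 genes around Bap1 and 0 of 1 H3K27 demethylases. The lists were counted per gene, and the background per window, over 32851 windows of 27025 genes. The letters GGCG at the end of one E2F word can also begin GGCGCC, but the matches of Ezh2 lay apart from each other. The window of Ezh1 held none of the 3 motifs. These matches describe the letters only, and binding was not measured.

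The level of Ezh2 was 21.1, 12.5 and 14.9 FPKM in the control libraries, 3.81, 5.30 and 6.06 FPKM in the bFGF/BMP4 libraries and 3.04, 3.02 and 3.01 FPKM in the BMP4 libraries. The 3 groups did not overlap, and the BMP4 libraries lay very close together (3.02 ± 0.019, SD, n = 3). Compared with bFGF/EGF-treated NSCs, Ezh2 fell by 1.65 ± 0.21 (SE) on the log2 scale in bFGF/BMP4-treated NSCs (limma, adjusted p = 0.000145) and by 2.35 ± 0.21 in BMP4-treated NSCs (adjusted p = 9.87e-06), that is 3.13-fold and 5.08-fold. From bFGF/BMP4-treated to BMP4-treated NSCs the difference was -0.70 ± 0.21 on the log2 scale (95% interval -1.18 to -0.22, limma, adjusted p = 0.0432). Exons of Ezh2 share 94 bases with Cul1 on the opposite strand, at 26.2 to 31.4 FPKM in the group means. The call between the groups of day 6 lay close to the threshold. It was lost when any BMP4 library was left out (adjusted p 0.1 to 0.111), when bFGF/BMP4 replicate 2 (0.136) or 3 (0.16) or bFGF/EGF replicate 3 (0.0654) was left out, and with a pseudocount of 1 (0.0637) or no filter (0.0667), in all in 9 of 18 alternatives tried.

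Ezh1, the paralogue with weaker methyltransferase activity, lies on chromosome 11 at 101081934 to 101117315 on the minus strand. It was at 0.822, 0.824 and 0.791 FPKM in the control libraries, from 97 to 104 fragments each, at 4.20, 3.57 and 3.07 FPKM in the bFGF/BMP4 libraries and at 4.94, 4.20 and 4.82 FPKM in the BMP4 libraries. Both groups of day 6 lay above every control library and overlapped each other. Ezh1 rose by 2.01 ± 0.16 (SE) on the log2 scale in bFGF/BMP4-treated NSCs (limma, adjusted p = 7.14e-06) and by 2.38 ± 0.16 in BMP4-treated NSCs (adjusted p = 1.69e-06), or 4.04-fold and 5.20-fold. With a pseudocount of 1 FPKM, which lowers the fold of a gene as low as Ezh1 in the control, the rises were 1.34 and 1.64 on the log2 scale. The difference between the groups of day 6, 0.36 ± 0.16, did not pass (adjusted p = 0.156, 95% interval -0.00 to 0.73). Exons of Ezh1 share 814 bases with Cntnap1 on the opposite strand, whose level was 0.586 ± 0.16, 0.658 ± 0.23 and 3.00 ± 0.99 FPKM (SD, n = 3) in the control, bFGF/BMP4 and BMP4 groups. The strand setting of the counting is not given in the sources used here, so reads of both genes cannot be told apart there, and the part of Cntnap1 in the level of Ezh1 was not tested.

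The ratio of Ezh2 to Ezh1 did not overlap between the groups. It was 15.1 to 25.6 in the bFGF/EGF libraries, 0.908 to 1.97 with bFGF/BMP4 and 0.616 to 0.720 with BMP4 alone, with means of 19.9 ± 5.3, 1.45 ± 0.53 and 0.653 ± 0.058 (SD, n = 3). Ezh1 was thus above Ezh2 in every BMP4 library and in 1 of 3 bFGF/BMP4 libraries. On the log2 scale the ratio was 3.81 and 4.90 lower in bFGF/BMP4-treated and BMP4-treated than in bFGF/EGF-treated NSCs, and 1.09 lower in BMP4-treated than in bFGF/BMP4-treated NSCs. With 3 libraries against 3, the two-sided exact permutation test gave its smallest possible p, 0.1, in each of these (0.15 after adjustment over 15 ratio comparisons), so it cannot reach 0.05. Levels of 2 genes are compared per length, with the gene lengths that the authors used. These were 7440 bases for Ezh1 and 6678 for Ezh2, against 9250 and 7299 bases of exons in GENCODE vM39. A change of length would move a ratio in all groups alike. Which gene was above thus depends on the annotation where the ratio was near 1, as at 0.908.

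As a share of the summed level of both enzymes, Ezh2 made up 95.004% ± 1.2, 57.9% ± 9.5 and 39.5% ± 2.1 (SD, n = 3) in the control, bFGF/BMP4 and BMP4 groups. The sum itself was 17.0 ± 4.4, 8.67 ± 0.58 and 7.68 ± 0.40 FPKM. The lowest sum among the bFGF/EGF libraries, 13.3 FPKM, was above the highest in both other groups, 9.13 FPKM. The shares and sums were chosen after the values were seen and carry no test.

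**Figure D3:**
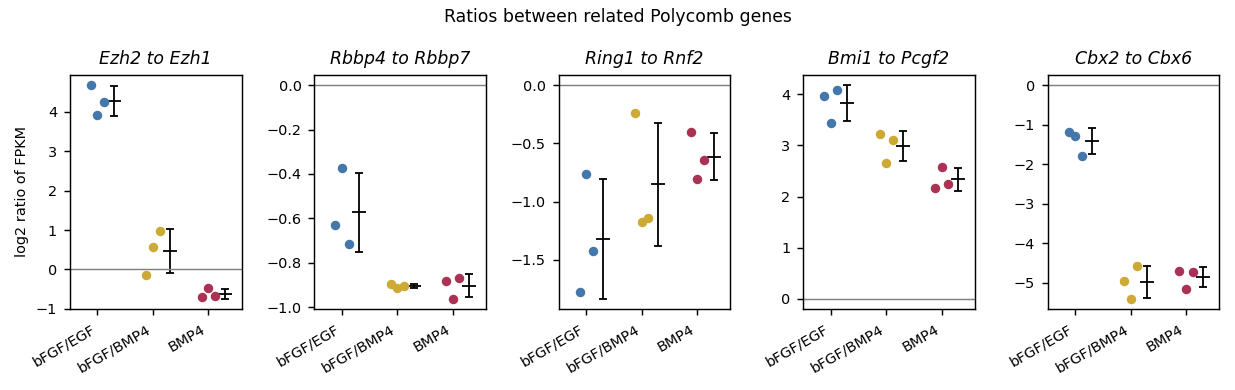
Log2 ratio of FPKM of 5 pairs of related Polycomb genes (y axis, a scale of its own in each panel) in the 3 libraries of each group (points, x axis), with the mean and SD beside them and a line at equal levels. The Ezh2 to Ezh1 ratio crosses this line, from a mean of 4.28 in the control to 0.47 with bFGF/BMP4 and -0.62 with BMP4 alone.

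The core subunits Eed and Suz12 were lower at day 6. Eed, the subunit that binds H3K27me3 (chromosome 7, 89603862 to 89630217, minus strand), was at 12.8, 11.1 and 10.3 FPKM in the control libraries, 6.98, 7.78 and 6.22 FPKM in the bFGF/BMP4 libraries and 6.02, 8.50 and 5.83 FPKM in the BMP4 libraries. The groups of day 6 overlapped each other and lay below the control. Eed fell by 0.70 ± 0.17 (SE) on the log2 scale in bFGF/BMP4-treated NSCs (limma, adjusted p = 0.00622) and by 0.76 ± 0.17 in BMP4-treated NSCs (adjusted p = 0.00338), and between these groups the difference was -0.06 (95% interval -0.43 to 0.32, adjusted p = 0.862).

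Suz12, the scaffold of PRC2 (chromosome 11, 79883891 to 79925421, plus strand), was at 25.1, 14.5 and 22.6 FPKM in the control libraries, 12.7, 15.8 and 14.0 FPKM in the bFGF/BMP4 libraries and 11.3, 12.02 and 10.7 FPKM in the BMP4 libraries. The BMP4 libraries lay below all others, while the bFGF/EGF and bFGF/BMP4 libraries overlapped through bFGF/EGF replicate 2. Suz12 fell by 0.83 ± 0.19 (SE) on the log2 scale from bFGF/EGF-treated to BMP4-treated NSCs (limma, adjusted p = 0.00409). The fall of 0.51 ± 0.19 in bFGF/BMP4-treated NSCs was just past the threshold (adjusted p = 0.0463) and was lost in 13 of 18 alternatives, with an adjusted p of 0.00156 without bFGF/EGF replicate 2 and 0.0581 to 0.169 without each other library in turn. Between the groups of day 6 the difference of -0.31 did not pass (adjusted p = 0.3), although their libraries did not overlap.

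The histone-binding subunits Rbbp4 and Rbbp7, which also belong to other chromatin complexes, had the highest levels per length of the 10 members in the bFGF/EGF group. Rbbp4 (chromosome 4, 129184867 to 129229170, minus strand) was at 55.8, 57.9 and 41.4 FPKM in the control libraries, 19.9, 23.7 and 24.4 FPKM in the bFGF/BMP4 libraries and 23.1, 29.6 and 23.7 FPKM in the BMP4 libraries. It fell by 1.18 ± 0.16 (SE) on the log2 scale in bFGF/BMP4-treated NSCs (limma, adjusted p = 0.000199) and by 1.01 ± 0.16 in BMP4-treated NSCs (adjusted p = 0.000417). Both groups of day 6 lay below all control libraries and overlapped each other (difference 0.16, adjusted p = 0.538). Exons of Rbbp4 share 3178 bases with Sync on the opposite strand, which was at 0.142 to 0.700 FPKM in the group means.

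Rbbp7 (chromosome X, 161543356 to 161562099, plus strand) was at 86.4, 74.9 and 68.0 FPKM in the control libraries, 37.0, 44.6 and 45.8 FPKM in the bFGF/BMP4 libraries and 42.5, 57.6 and 43.3 FPKM in the BMP4 libraries. Its pattern was that of Rbbp4, with a fall of 0.85 ± 0.15 (SE) on the log2 scale in bFGF/BMP4-treated NSCs (limma, adjusted p = 0.00129) and of 0.68 ± 0.15 in BMP4-treated NSCs (adjusted p = 0.00386), and a difference of 0.16 between these groups (adjusted p = 0.528). The ratio of Rbbp4 to Rbbp7 was 0.676 ± 0.086, 0.534 ± 0.0040 and 0.535 ± 0.019 (SD, n = 3) in the control, bFGF/BMP4 and BMP4 groups. The FPKM of Rbbp7 rests on a gene length of 2909 bases, against 8243 bases of exons in GENCODE vM39, so its place above Rbbp4 depends on the annotation.

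Jarid2, the accessory subunit, lies on chromosome 13 at 44882950 to 45075119 on the plus strand. It was at 6.10, 5.93 and 5.73 FPKM in the control libraries, 3.02, 2.87 and 2.84 FPKM in the bFGF/BMP4 libraries and 2.69, 1.80 and 2.55 FPKM in the BMP4 libraries. The 3 groups did not overlap, but the step between the groups of day 6 did not pass the test (-0.32 on the log2 scale, 95% interval -0.69 to 0.05, adjusted p = 0.219). Jarid2 fell by 0.999 ± 0.16 (SE) on the log2 scale in bFGF/BMP4-treated NSCs, 1.998-fold (limma, adjusted p = 0.000668), and by 1.32 ± 0.16 in BMP4-treated NSCs, 2.49-fold (adjusted p = 8.36e-05). The fall in bFGF/BMP4-treated NSCs was just under 2-fold, so Jarid2 is not among the 3 members counted there. Its exons share 1293 bases with Dtnbp1 on the opposite strand, which was at 5.50, 12.2 and 9.63 FPKM as control, bFGF/BMP4 and BMP4 group means, and its part in the level of Jarid2 was not tested.

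Among the PRC1 members, Cbx2 had the largest fall of all 10 genes. Cbx2, a reader of H3K27me3 that can compact chromatin (chromosome 11, 118913788 to 118922100, plus strand), was at 7.49, 6.67 and 4.28 FPKM in the control libraries, 0.643, 0.429 and 0.719 FPKM in the bFGF/BMP4 libraries and 0.651, 0.406 and 0.641 FPKM in the BMP4 libraries. These values came from 322 to 542 fragments in the control and from 28 to 45 in each library of day 6. Cbx2 fell by 3.15 ± 0.28 (SE) on the log2 scale in bFGF/BMP4-treated NSCs, 8.88-fold (limma, adjusted p = 1.4e-05), and by 3.21 ± 0.28 in BMP4-treated NSCs, 9.28-fold (adjusted p = 8.15e-06). The groups of day 6 overlapped, with a difference of -0.06 (95% interval -0.70 to 0.57, adjusted p = 0.915). Adding 0.1 FPKM and, more so, the alternative of adding 1 FPKM lowers such folds, and with 1 FPKM the falls were 2.14 and 2.17 on the log2 scale.

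Cbx2 was read beside its paralogue Cbx6. Cbx6, at 16.0, 18.4 and 16.0 FPKM in the control, bFGF/BMP4 and BMP4 groups, passed in no comparison (limma, adjusted p 0.175 to 0.981). The ratio of Cbx2 to Cbx6 was 0.381 ± 0.081, 0.0326 ± 0.0091 and 0.0349 ± 0.0058 (SD, n = 3). The exact permutation test gave p = 0.1 between the control and each group of day 6, the smallest it can give (adjusted 0.15), and p = 0.7 between those groups (adjusted 0.75).

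Bmi1, known for silencing Ink4/Arf in neural stem cells (chromosome 2, 18681292 to 18691441, plus strand), passed in no comparison. It was at 30.5, 22.5 and 27.7 FPKM in the control libraries, 17.7, 21.1 and 23.5 FPKM in the bFGF/BMP4 libraries and 21.8, 25.7 and 24.3 FPKM in the BMP4 libraries. All 3 groups overlapped. The difference in bFGF/BMP4-treated NSCs was -0.37 ± 0.15 (SE) on the log2 scale (95% interval -0.70 to -0.04, limma, adjusted p = 0.0636) and passed in 4 of 18 alternatives, 2 of them without bFGF/EGF replicate 2 (adjusted p = 0.0222) or bFGF/BMP4 replicate 3 (0.0463). In BMP4-treated NSCs it was -0.16 (95% interval -0.49 to 0.17, adjusted p = 0.393). Its paralogue Pcgf2 rose by 0.85 ± 0.21 from bFGF/BMP4-treated to BMP4-treated NSCs (adjusted p = 0.0165) and by 1.29 ± 0.21 from the control to BMP4-treated NSCs (adjusted p = 0.000504), at 1.88, 2.65 and 4.74 FPKM in the 3 groups. The ratio of Bmi1 to Pcgf2 was 14.5 ± 3.3, 8.10 ± 1.6 and 5.09 ± 0.80 (SD, n = 3) with no overlap between groups, each comparison at the smallest exact permutation p of 0.1.

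Ring1, an H2A ubiquitin ligase (chromosome 17, 34239766 to 34243654, minus strand), was the only PRC1 member of the 10 with a higher level in BMP4-treated NSCs. It was at 5.55, 7.51 and 6.39 FPKM in the control libraries, 9.65, 6.59 and 6.41 FPKM in the bFGF/BMP4 libraries and 9.40, 9.14 and 8.21 FPKM in the BMP4 libraries. The BMP4 libraries lay above the control, and the bFGF/BMP4 libraries overlapped both. The rise of 0.46 ± 0.18 (SE) on the log2 scale from bFGF/EGF-treated to BMP4-treated NSCs was at the edge of the threshold (limma, adjusted p = 0.0494). It was lost in 14 of 18 alternatives, among them the omission of each library except bFGF/EGF replicate 2 (adjusted p = 0.0337) and bFGF/BMP4 replicate 1 (0.0188), with 0.0542 to 0.163 without each other library. The paralogue Rnf2 was at 16.3, 13.5 and 13.7 FPKM and passed in no comparison (adjusted p 0.254 to 0.948). The ratio of Ring1 to Rnf2 was 0.419 ± 0.15, 0.581 ± 0.23 and 0.658 ± 0.093 (SD, n = 3), with overlap between all groups (exact permutation p 0.2 to 0.6).

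By mean level the members fell into the order Rbbp7, Rbbp4, Bmi1, Suz12, Ezh2, Eed, Ring1, Cbx2, Jarid2 and Ezh1 in the bFGF/EGF-treated NSCs, from 76.4 ± 9.3 to 0.813 ± 0.019 FPKM (SD, n = 3). Neighbours such as Suz12 (20.7 ± 5.5) and Ezh2 (16.2 ± 4.4), and Ring1 (6.48 ± 0.98), Cbx2 (6.15 ± 1.7) and Jarid2 (5.92 ± 0.19), did not differ beyond their spread. In BMP4-treated NSCs the order began with Rbbp7 (47.8 ± 8.5), Rbbp4 (25.5 ± 3.6) and Bmi1 (23.9 ± 2.0) and ended with Ezh1 (4.66 ± 0.40), Ezh2 (3.02 ± 0.019), Jarid2 (2.35 ± 0.48) and Cbx2 (0.566 ± 0.14).

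Another 50 Polycomb genes, of which 49 were tested and Ezhip was too low, were described by the same test. They include 11 genes around the H2A deubiquitinase Bap1 and 2 H3K27 demethylases, described below as genes that oppose Polycomb. The counts and medians here therefore mix both kinds. In bFGF/BMP4-treated compared with bFGF/EGF-treated NSCs, 16 were lower and 8 higher, against 23.6% and 25.0% of all genes tested, and their median log2 fold change was -0.23. In BMP4-treated compared with bFGF/EGF-treated NSCs, 22 were lower and 6 higher (median -0.31), against 25.3% and 29.6%. Between BMP4-treated and bFGF/BMP4-treated NSCs, 3 were lower and 4 higher (median -0.14), against 8.89% and 12.2%. At 2-fold or more, 5 were lower and 3 higher in the first comparison, against 14.1% and 16.5% of all genes. In the second, 10 were lower and 4 higher, against 15.4% and 21.3%. In the third, 0 were lower and 0 higher, against 5.14% and 8.41%.

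Of the PRC2 accessory genes, 7 were tested, and 3 were lower and none higher in each comparison with the control (0 also by unadjusted p and by limma-voom). The shares over all genes were 23.6% lower and 25.0% higher in bFGF/BMP4-treated NSCs, and 25.3% and 29.6% in BMP4-treated NSCs. Epop, a subunit that links PRC2 to Elongin, was at 8.07 ± 0.99, 1.18 ± 0.12 and 2.08 ± 0.34 FPKM (SD, n = 3) in the control, bFGF/BMP4 and BMP4 groups. It fell by 2.67 ± 0.17 (SE) on the log2 scale in bFGF/BMP4-treated NSCs (limma, adjusted p = 1.74e-06) and by 1.91 ± 0.17 in BMP4-treated NSCs (adjusted p = 9.74e-06), and rose by 0.75 ± 0.17 between them (adjusted p = 0.0114), so its lowest level was in the bFGF/BMP4 group. Phf19, a Polycomb-like protein that helps PRC2 to bind chromatin, went from 5.58 ± 1.5 to 1.40 ± 0.36 and 1.65 ± 0.29 FPKM (SD, n = 3; adjusted p = 0.000211 and 0.000404 against the control).

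Of the 12 other genes of canonical PRC1, 5 were lower and 3 higher in bFGF/BMP4-treated than in bFGF/EGF-treated NSCs, and 6 were lower and 3 higher in BMP4-treated NSCs. The shares over all genes were 23.6% and 25.0%, and 25.3% and 29.6%. Scml4, which belongs to the family of Sex comb on midleg proteins, had the largest fall, from 3.46 ± 0.047 to 0.226 ± 0.070 and 0.508 ± 0.12 FPKM (SD, n = 3; limma, adjusted p = 3.52e-06 and 1.65e-05). Like Epop it was lowest in the bFGF/BMP4 group, and its rise of 0.91 ± 0.25 (SE) on the log2 scale to the BMP4 group passed (adjusted p = 0.029). Phc2, a polyhomeotic protein that links PRC1 complexes to each other, fell in 2 steps, from 40.1 ± 6.2 to 25.1 ± 2.6 and 13.1 ± 0.90 FPKM (SD, n = 3), and the second step of -0.93 ± 0.13 (SE) passed with an adjusted p of 0.000784. Cbx7, a reader of H3K27me3, rose from 0.906 ± 0.054 to 2.25 ± 0.67 and 2.45 ± 0.11 FPKM (SD, n = 3; adjusted p = 0.00112 and 0.000418). Cbx7 thus went opposite to Cbx2.

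Of the 17 genes of variant PRC1, which holds Rybp or Yaf2 in place of a Cbx protein, 5 were lower and 3 higher in bFGF/BMP4-treated NSCs and 8 were lower and 2 higher in BMP4-treated NSCs compared with the control, beside the same shares of all genes. Kdm2b, which brings a variant PRC1 to unmethylated CpG islands, fell from 8.97 ± 1.0 to 3.33 ± 0.27 and 2.40 ± 0.33 FPKM (SD, n = 3; limma, adjusted p = 5.01e-05 and 5.29e-06). Auts2, linked to a variant PRC1 that can activate genes in the brain, rose from 1.55 ± 0.20 to 3.82 ± 0.42 and 4.83 ± 0.93 FPKM (SD, n = 3; adjusted p = 0.000338 and 5.79e-05). Between the groups of day 6, Fbrsl1, a relative of Auts2, rose by 0.67 ± 0.13 (SE) on the log2 scale, from 13.2 to 20.9 FPKM (adjusted p = 0.00447). L3mbtl2, a subunit of the Pcgf6 complex, fell by 0.60 ± 0.16 in the same comparison, from 4.46 to 2.93 FPKM (adjusted p = 0.0246).

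Genes that oppose Polycomb were read by the same test. Of 11 genes around the H2A deubiquitinase Bap1, 3 were lower and 2 higher in bFGF/BMP4-treated NSCs and 4 were lower and 1 higher in BMP4-treated NSCs compared with the control, with medians of -0.09 and -0.08, where all genes tested gave 23.6% lower and 25.0% higher, and 25.3% and 29.6%. Asxl1, a cofactor of Bap1, went from 17.4 ± 2.6 to 9.14 ± 1.3 and 9.38 ± 1.6 FPKM (SD, n = 3; limma, adjusted p = 0.0013 and 0.00135). Hcfc1, a chromatin cofactor that binds Bap1, went from 48.1 ± 7.2 to 25.9 ± 2.0 and 18.6 ± 5.3 FPKM (SD, n = 3; adjusted p = 0.00604 and 0.0003). Asxl3 was near the lower limit of the test at 0.200, 0.179 and 0.0535 FPKM, and fell by 0.99 ± 0.34 (SE) from bFGF/EGF-treated to BMP4-treated NSCs (adjusted p = 0.0336). Between the groups of day 6, 0 of these 11 genes passed in limma, where 8.89% of all genes were lower and 12.2% higher. At an unadjusted p under 0.05, 3 of them were lower, and by limma-voom 1 was lower. Of the H3K27 demethylases, Kdm6b fell from 10.95 ± 0.91 to 7.49 ± 2.0 FPKM (SD, n = 3) in BMP4-treated NSCs (adjusted p = 0.0378), and Kdm6a, at 4.75, 5.46 and 5.18 FPKM, passed in no comparison (adjusted p 0.387 to 0.806).

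**Figure D4:**
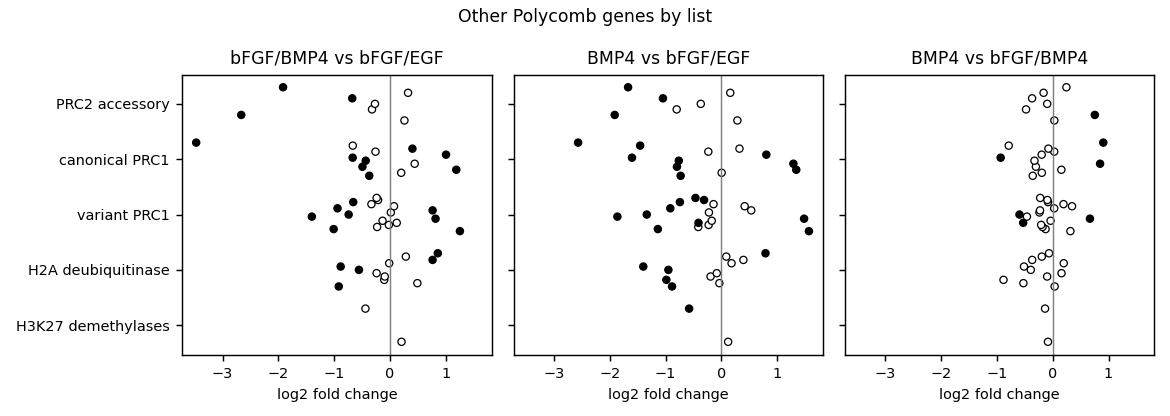
Log2 fold change (x axis) of the 49 other Polycomb genes tested, 1 point a gene, in 5 lists (y axis) and 3 comparisons, filled where the adjusted p was at most 0.05. The spread is widest in both comparisons with the bFGF/EGF-treated NSCs, where canonical PRC1 genes reached from -3.47 to 1.34, and between the groups of day 6 no gene lay past 1 in either direction.

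Classic targets of Polycomb were read beside its subunits. Of 39 Hox genes, none had the mean of 0.1 FPKM needed for the test, and in each group 37 or 38 were listed at 0 in all 3 libraries. Their summed level was at most 0.115 FPKM, from at most 4 fragments in a library. The Hox genes were thus not detectable beyond a few fragments at this depth in any group. At the Ink4/Arf locus, Cdkn2a, which encodes p16Ink4a and p19Arf, was at 69.6 ± 16, 46.3 ± 5.1 and 83.1 ± 24 FPKM (SD, n = 3) in the control, bFGF/BMP4 and BMP4 groups. It passed only between the groups of day 6, where it rose by 0.81 ± 0.22 (SE) on the log2 scale in BMP4-treated NSCs (limma, adjusted p = 0.0239, others 0.0527 and 0.376). Cdkn2b, its neighbour, was at 9.98 ± 3.7, 15.6 ± 1.1 and 47.6 ± 10 FPKM (SD, n = 3) and passed in all 3 comparisons (adjusted p = 0.0406 for bFGF/BMP4-treated and 3.39e-05 for BMP4-treated NSCs against the control, 0.00134 between them).

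Most proliferation genes were lower in all 3 comparisons, and of the members only Ezh2 was. All 20 genes of a proliferation list were lower in both groups of day 6 than in the control, and 18 of 20 were lower in BMP4-treated than in bFGF/BMP4-treated NSCs. Their median log2 fold change was -2.004, -4.11 and -1.71 in bFGF/BMP4-treated and BMP4-treated NSCs against the control and between the groups of day 6. The summed level was 668 to 1284, 141 to 247 and 74.2 to 91.7 FPKM over the control, bFGF/BMP4 and BMP4 libraries. Mki67, the gene of the Ki67 antigen, went from 34.1 ± 16 to 10.3 ± 3.2 and 1.72 ± 0.15 FPKM (SD, n = 3), and Top2a, the topoisomerase of dividing cells, from 48.4 ± 25 to 15.04 ± 5.3 and 2.53 ± 0.43 FPKM (SD, n = 3). The call of Ezh2 between the groups of day 6 (adjusted p = 0.0432) was lost in 9 of 18 alternatives, and the other 6 members that fell from the control to both groups of day 6 did not pass there. Markers of other cells moved as well, with the summed level of 8 neuron markers at 75.9 to 91.9, 47.6 to 53.3 and 142 to 213 FPKM and that of 7 ependymal markers at 8.39 to 12.7, 11.8 to 12.7 and 60.4 to 72.6 FPKM in the 3 groups. For 8 markers of the oligodendrocyte lineage the sum was 12.2 to 17.2, 9.39 to 11.04 and 24.6 to 30.7 FPKM. The neuronal marker Rbfox3 was at 0.989, 1.57 and 0.522 FPKM. The part of dividing cells, of astrocyte genes and of these markers in the differences of the Polycomb genes was not tested.

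Genes with patterns most like those of Ezh2 and Ezh1 were found by Pearson's correlation of log2(FPKM + 0.1) over the 9 libraries among genes with a mean of at least 5 FPKM. The libraries fall into 3 groups, so these values mostly restate the group levels and carry no test. The genes most like Ezh2, of 7898, were Tmpo (r = 0.9954), Ipo5 (0.9952), Topbp1 (0.9941), Myef2l (0.9938) and Ckap2 (0.9917). Tmpo, which encodes a protein of the nuclear lamina, was at 31.4, 8.54 and 4.89 FPKM as control, bFGF/BMP4 and BMP4 group means. Those most like Ezh1, of 7899, were Shisa9 (0.9974), Dtx1 (0.9956), Sirt3 (0.9956), Ccdc157 (0.9955) and Hbp1 (0.9952). Sirt3, a mitochondrial deacetylase, was at 1.44, 6.13 and 7.87 FPKM, and Hbp1, a transcriptional repressor, was at 2.18, 7.45 and 8.58 FPKM.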

How the data were processed

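RNA was sequenced in 9 libraries of mouse NSCs, 3 in each of 3 groups. Per the submitters' processing notes, fastp 0.19.7, HISAT2 2.0.5, featureCounts 1.5.0-p3 and the build mm39 were used. The authors deposited FPKM values, and the annotation release and the strand setting are not given in the sources used here. Whole fragment numbers (within 0.02) were rebuilt from them for all 30860 genes above 0, up to a common factor, with 15902890 to 17438719 per library, and each library had been divided by 0.9184 to 1.0717 times its fragments. Of 55414 Ensembl identifiers, 54749 were found in GENCODE vM39, and 290 other rows had only a name.

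The main test was limma 3.58.1 in R 4.3.3 with an intensity trend on log2(FPKM + 0.1), fitted to the 20207 genes averaging at least 0.1 FPKM, all 9 libraries and group as the only term, with Benjamini-Hochberg adjustment. It stands in place of the count test of the study, since the values tested here are FPKM. The raw counts that the paper provides were not used. Data were also simulated for BMP4-treated against bFGF/BMP4-treated NSCs (20207 genes, 200 changed, 1 dispersion of 0.0138 for all genes). There limma called 62.2% of genes changed by 1 and 98% of those changed by 2 on the log2 scale, and 9 unchanged genes. With 0 genes changed it called 10. Far more genes were called in the data (2474 higher and 1797 lower). The adjustment depends on that number, so these percentages do not carry over to the data. Ratios were tested by exact permutation. Python 3.11.15, pandas 2.3.3, numpy 2.4.6 and matplotlib 3.10.9 were used. Promoters are from RefSeq (GRCm38.p6) and gene positions from GENCODE vM39 (GRCm39).

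The members and lists were chosen with earlier results of these data known. Named beside the members were the 2 genes with the largest change past the test in each other Polycomb list and comparison, the paralogues Rnf2, Pcgf2 and Cbx6, Cdkn2a, Cdkn2b, Mki67 and Top2a, and the 5 genes most like Ezh2 and Ezh1. Overlapping genes, Kdm6a and the cell markers are named besides. The alternatives were other pseudocounts, filters, scalings, limma-voom, a replicate block, the 2 groups alone, a 2-fold threshold and each library left out.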

Additional observations from a re-analysis of the deposited data

How the results depend on the processing

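Of 30 differences (10 members in 3 comparisons), 26 kept their side of the threshold in all 18 alternatives, 4 did not, and 0 of those that passed reversed. The 4 were Ezh2 between the groups of day 6 (adjusted p 0.0197 to 0.16), Suz12 (0.00156 to 0.169) and Bmi1 (0.013 to 0.206) in bFGF/BMP4-treated NSCs against the control, and Ring1 in BMP4-treated NSCs against the control (0.0188 to 0.163). Eed and Cbx2, which did not pass between the groups of day 6, changed sign there with some libraries left out.

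The count of members lower in BMP4-treated than in bFGF/BMP4-treated NSCs went from 1 to 0 with a pseudocount of 1, with no filter and at 2-fold, and was 0 to 1 with each library left out. The count of members higher in BMP4-treated than in bFGF/EGF-treated NSCs went from 2 to 1 with a pseudocount of 1, no filter, TPM, quantile or median-ratio scaling, limma-voom and at 2-fold, and was 1 to 2 with each library left out. Of the other Polycomb genes, those higher in BMP4-treated than in bFGF/BMP4-treated NSCs went from 4 to 0 at 2-fold and to 2 to 4 with each library left out (2 without BMP4 replicate 1 or 3). Those lower there went from 3 to 6 with quantile normalization, 5 with limma-voom, 0 at 2-fold and 1 to 3 with each library left out (1 without bFGF/BMP4 replicate 2 or 3 or BMP4 replicate 3). At 2-fold, the lower members were 3 and 4 of 7 in bFGF/BMP4-treated and BMP4-treated NSCs against the control. The other Polycomb genes lower were 5 of 16 and 10 of 22, and those higher in bFGF/BMP4-treated NSCs were 3 of 8. Of all genes tested, 14.1% and 15.4% were lower by 2-fold or more there, and 16.5% were higher in bFGF/BMP4-treated NSCs. In the 250 bases before the start alone, 1 member held an E2F match. The causes were not tested.

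Whether the replicate numbers pair the libraries is not known. Deviations of same-numbered libraries correlated at -0.0839 to 0.125 over 9 pairs, 1 of them over 0.1. Those of libraries with other numbers correlated at -0.154 to 0.0814 over 18 pairs. Such low values with 3 libraries a group cannot exclude a pairing. With a replicate block, the count of members lower between the groups of day 6 was 0 and that of members higher in BMP4-treated NSCs against the control was 1, with Ezh2 at an adjusted p of 0.0744, Suz12 at 0.0715 and Ring1 at 0.0664. The median of all genes in BMP4-treated NSCs against the control was 0.10, and -0.03 with quantile normalization. With 3 libraries a group, differences near 1 on the log2 scale or smaller can be missed, and the levels of Cbx2 at day 6 rest on 28 to 45 fragments.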
